A study of Homo sapiens with 8 samples.

Results

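The genes described here are 10 components of the Notch pathway, taken as the rows of the count table that carry the symbols NOTCH1, NOTCH2, NOTCH3, JAG1, JAG2, HES1, HES4, HEY1, HEYL and NRARP, out of 27696 gene rows in all. RNA-Seq was carried out on IMR90 cells, primary fibroblasts from human embryonic lung, that had spent 3 days in medium taken from cultures of IMR90 ER:RAS fibroblasts. The ER:RAS cells carry an oncogenic RAS whose activity is switched on by 4-hydroxytamoxifen (4-OHT), which drives them into senescence, whereas the sequenced recipient cells carry no such construct. Recipient cells given medium taken on day 0 of 4-OHT are named D0 and serve as the control, and those given medium of day 4, day 7 or day 10 are named D4, D7 and D10. Each group holds 2 libraries from 2 independent experiments, called experiments 1 and 2 below after the replicate number in the labels. That a number marks the same experiment in every group is an assumption. A group rests on a single cell strain, and p-values measure only the spread between these experiments.

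Notch is a receptor that is activated by a ligand on the surface of a neighbouring cell. Pulling by the ligand exposes the receptor to cleavage, first by an ADAM protease and then by gamma-secretase, and the freed intracellular domain enters the nucleus, where it joins the DNA-binding protein RBPJ and switches on genes of the HES and HEY families and NRARP. These targets are repressors or feedback inhibitors, and their transcripts are commonly read as a sign of pathway activity. In fibroblasts Notch is tied to TGF-beta signaling and to the myofibroblast state, and it has been linked to an early, fibrogenic wave of the factors that senescent cells secrete, which raises the question of whether its own components change in cells that receive that secretome.

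RBPJ binds a short core sequence, TGGGAA, and the promoters of the target genes that carry it are shown here because the pathway acts on its targets through RBPJ. A match is a run of letters and not a measured binding site. RefSeq promoter windows (GRCh38.p14, 250 bases before to 50 after the gene start) were at hand for 9 of the 10 genes, all except HEY1. The core was searched on both strands (TGGGAA or TTCCCA) and stands in capitals below, with the stretch written 5′ to 3′ along the strand of the gene. For HES1 the stretch is chr3:194136024-194136123 (plus strand), for HES4 it is chr1:1000128-1000213 (minus strand) and for HEYL it is chr1:39639697-39639861 (minus strand).
HES1: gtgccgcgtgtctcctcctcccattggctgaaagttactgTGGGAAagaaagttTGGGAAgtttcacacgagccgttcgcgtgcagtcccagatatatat
HES4: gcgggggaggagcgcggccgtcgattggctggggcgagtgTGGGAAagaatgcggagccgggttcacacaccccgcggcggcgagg
HEYL: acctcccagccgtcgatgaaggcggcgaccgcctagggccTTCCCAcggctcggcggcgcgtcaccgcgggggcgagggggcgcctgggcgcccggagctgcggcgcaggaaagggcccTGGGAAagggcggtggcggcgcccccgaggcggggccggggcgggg
HES1 held a pair of cores, beginning 84 and 70 bases before the RefSeq start, with 8 bases between them. HES4 held 1 core, 76 bases before its RefSeq start. HEYL held 2, on opposite strands, at 178 and 99 bases before its RefSeq start. In GENCODE the genes HES4 and HEYL start farther upstream than in RefSeq. The HEYL stretch therefore lies wholly within its GENCODE gene, and the HES4 stretch lies partly within its own.

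Across all 35116 promoter windows the core was found at least once in 24.0% and at least 2 times in 3.80%. It was not found in the windows of NOTCH1, NOTCH2, NOTCH3, JAG1, JAG2 or NRARP. The N box, CACNAG, is a letter pattern that HES repressors are known to bind. Searched on both strands in the same windows, it was present in 38.0% of all of them. HES1 held 4 N boxes in its window, NOTCH1 held 2, which overlap each other at the RefSeq start, and NOTCH2, NOTCH3 and NRARP held 1 each. For NOTCH1 and NOTCH2 the bases after the RefSeq start were not found in a GENCODE transcript of the gene. The NOTCH1 window lies wholly upstream of its GENCODE gene. JAG1, JAG2, HES4 and HEYL held none.

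Library totals ran from 11708193 to 13395912 counts. Values are given as CPM, the counts scaled to a common library total after TMM normalization. All 10 fibroblast markers on a list of such genes were detected, whereas 4 of the 6 epithelial and 4 of the 7 leukocyte markers with a row were at the count floor, set as no more than 3 counts in any library. The D10 library of experiment 2 stood apart from the other 7 libraries. It had the lowest total, a median correlation with the others of 0.951 against 0.963 to 0.979, a summed fibroblast marker level of 10131 CPM against 30386 to 46849 CPM, and 1.22% mitochondrial counts against 2.18% to 3.60%. Log2 changes at D10 are therefore given with and without it. Of the fibroblast markers, LUM, PDGFRA and FAP in that library lay within the range of the other libraries. The remaining ones on the list were lowest there, among them COL1A1 at 1295 CPM against 8694 to 14499 CPM. In bulk RNA, fewer cells of one kind and less RNA per cell cannot be told apart.

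At D0, level per kilobase of exon placed NOTCH3 (17.2 ± 3.93 CPM per kilobase, SD, n = 2) and NOTCH2 (16.9 ± 1.20) at the top. These neighbours overlapped between libraries. Next came HES4 (7.44 ± 1.63) and the ligand JAG1 (7.14 ± 0.135), which also overlapped, and then NOTCH1 (2.97 ± 0.433). HES1 followed at 0.569 ± 0.344 and JAG2 at 0.110 ± 0.0109 CPM per kilobase, each apart from its neighbours in the order. NRARP, HEY1 and HEYL were at the count floor at D0. Of the 5 targets HES4 was the most abundant, with a level per length above that of HES1 in every library of every group.

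**Figure D1:**
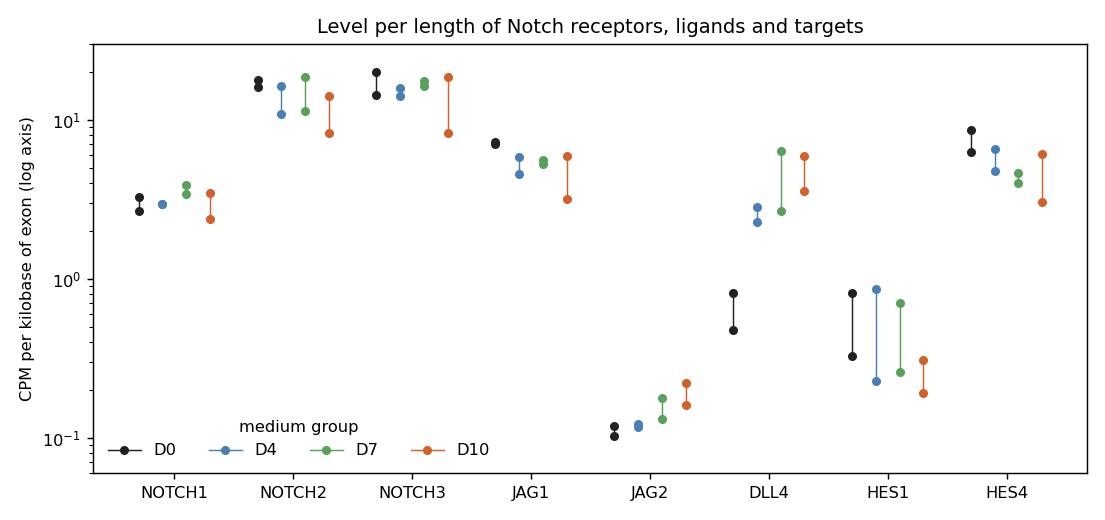
Level per length (CPM per kilobase of exon, logarithmic vertical axis) of receptors, ligands and targets in the 4 medium groups, where each point is a library and a line joins the 2 libraries of a group. By group mean NOTCH2 and NOTCH3 lie highest and JAG2 lowest, and at D10 the points of JAG2 and HES1 overlap. DLL4, a further ligand described below, lies lower in both D0 libraries than in all 6 others.

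Of the 10 genes, 7 passed the filter on low counts and entered edgeR's quasi-likelihood fit, which covered 13798 genes in all 8 libraries, with p-values adjusted over those genes by Benjamini-Hochberg. None of the 7 passed an adjusted p of 0.05 at D4, D7 or D10 against D0, at D10 against D4, or as a linear trend over the day of the medium. At D4 this test called 0% of all genes, with 409 at an unadjusted p under 0.05, and none of the 7 was among the latter. At D7 it also called 0%, with 599 at an unadjusted p under 0.05, again none of the 7. At D10 it called 0.290% (40 genes), with 1095 at an unadjusted p under 0.05, and at D10 against D4 it called 0.00725% (1 gene), with 786; none of the 7 was under that unadjusted value in either. The trend called 1.18%, with 1346 genes at an unadjusted p under 0.05, and here JAG1 and HES4 were among the latter.

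With the experiment as a replicate block, edgeR called 0.275% of genes at D4, 1.25% at D7, 4.99% at D10, 2.55% at D10 against D4 and 4.30% for the trend, and again none of the 7. DESeq2 called 0.287%, 0.785%, 2.17%, 0.938% and 2.97% in the same order, and none of the 7. The comparisons with D0 share the D0 libraries and are therefore not independent of each other. The median log2 change of the 7 genes was -0.20 at D4, -0.17 at D7 and -0.60 at D10, beside 0.009, -0.0004 and 0.004 for all tested genes. Without the D10 library of experiment 2 the median at D10 was -0.27, beside -0.016 for all tested genes. At D10, 5 of the 7 were lower than D0 in both experiments and 1 was higher in both, where 32.3% of all tested genes were lower and 31.1% higher in both.

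**Figure D2:**
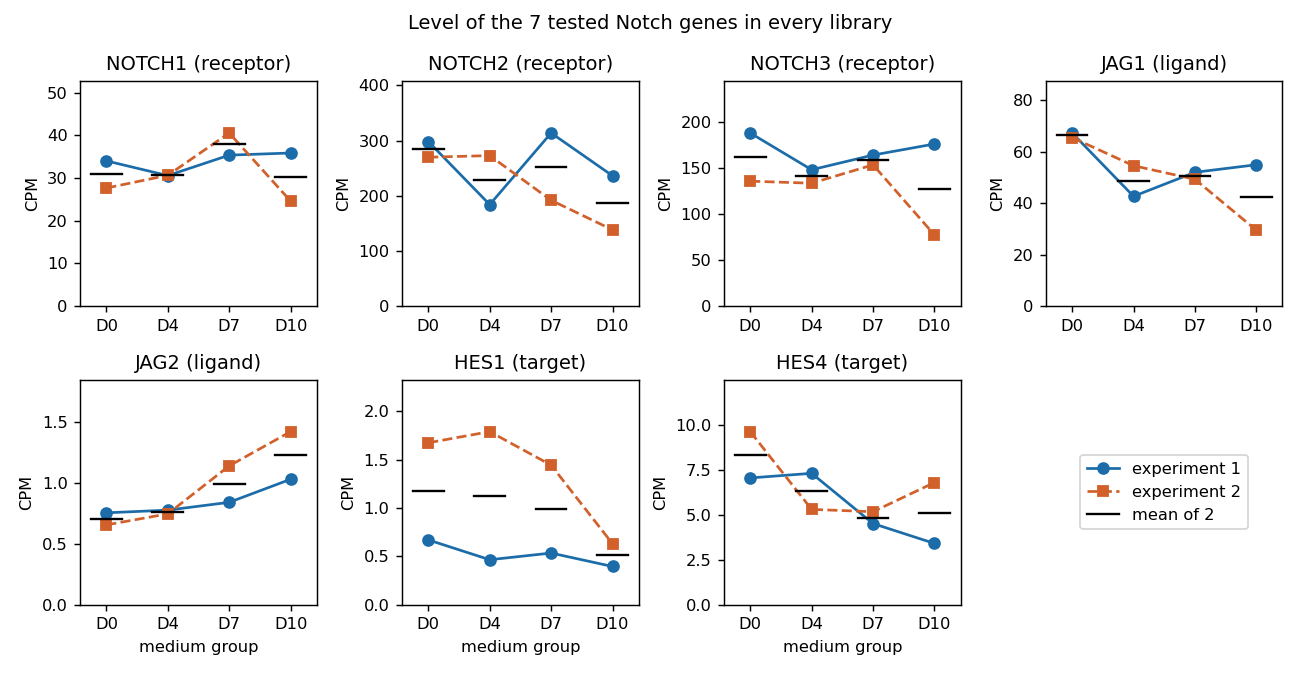
Level (CPM, vertical axes from 0) of the 7 tested genes in every library by medium group, with circles and solid lines for experiment 1, squares and dashed lines for experiment 2, and a bar for the mean of each group. JAG1 is highest at D0 in both experiments, JAG2 is lowest at D0 in both, and HES1 is higher in experiment 2 in every group.

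Among the receptors, NOTCH1 (ENSG00000148400.9, chr9:136494433-136545786, minus strand, GENCODE 29 on GRCh38) was measured in experiments 1 and 2 at 34.0 and 27.7 CPM in D0, 30.6 and 30.6 CPM in D4, 35.4 and 40.6 CPM in D7, and 35.9 and 24.6 CPM in D10. The D7 libraries were both above the D0 libraries, whereas the D10 libraries lay on either side of them. The fitted log2 change at D10 was -0.03 (SE 0.25, 95% interval -0.60 to 0.54), and without the D10 library of experiment 2 it was 0.22. At D7 it was 0.30 (SE 0.25, interval -0.27 to 0.87). NOTCH1 is the receptor whose intracellular domain is most often used to activate the pathway, and at D10 the interval spans changes of less than 1 log2 unit in either direction.

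NOTCH2 (ENSG00000134250.19, chr1:119911553-120069626, minus strand) stood at 298 and 270 CPM in D0, 184 and 273 CPM in D4, 314 and 192 CPM in D7, and 236 and 138 CPM in D10. The groups overlapped at D4 and D7 and did not overlap at D10, where both libraries were below both D0 libraries. The log2 change at D10 was -0.60 (SE 0.36, edgeR quasi-likelihood with Benjamini-Hochberg, adjusted p = 0.886), made up of -0.34 within experiment 1 and -0.96 within experiment 2. It was -0.27 without the D10 library of experiment 2. By its sequence, NOTCH2 is the least certain of the receptors, since 23.4% of the 50-base words in its exons also occur in other genes, among them NOTCH2NLA, NBPF14 and NBPF19, and reads from these cannot be assigned with certainty.

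NOTCH3 (ENSG00000074181.8, chr19:15159038-15200981, minus strand), a receptor best known from mural cells of vessels, gave 188 and 136 CPM in D0, 148 and 133 CPM in D4, 164 and 153 CPM in D7, and 176 and 77.2 CPM in D10. Its D10 library of experiment 2 was the lowest of all 8, and that of experiment 1 lay within the range of D0. The log2 change at D10 was -0.35 (SE 0.37, interval -1.21 to 0.51) with all libraries. Within experiments 1 and 2 it was -0.09 and -0.81, so that it was lower in both but by little in experiment 1. In the fit without the D10 library of experiment 2 it was 0.12. That value sets the single remaining D10 library against both D0 libraries. The summed level of 6 pericyte markers in that library was 257 CPM, within the range of 230 to 401 CPM in the other libraries; the part of such cells was not tested.

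The ligand JAG1 (ENSG00000101384.11, chr20:10637684-10673999, minus strand), a membrane protein that activates Notch on the adjoining cell, was measured at 67.3 and 65.5 CPM in D0, 42.7 and 54.6 CPM in D4, 52.0 and 49.3 CPM in D7, and 54.9 and 29.5 CPM in D10. All 6 libraries of the later media lay below both D0 libraries. Log2 changes were -0.45 (SE 0.30) at D4, -0.39 (SE 0.30) at D7 and -0.65 (SE 0.30) at D10, with an adjusted p of 0.680 at D10 by edgeR (quasi-likelihood, Benjamini-Hochberg). Without the D10 library of experiment 2 the change at D10 was -0.27. The trend was -0.059 log2 units per day of the medium (95% interval -0.12 to -0.0021, unadjusted p = 0.0434 and adjusted p = 0.485 by the same edgeR test), and -0.034 without that library. An antisense RNA, AL050403.2, overlaps 0.850% of the exon bases of JAG1 on the other strand.

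JAG2 (ENSG00000184916.8, chr14:105140981-105168824, minus strand), the second Jagged ligand, was close to the limit of detection, with 9 and 9 counts in D0, 10 and 10 in D4, 11 and 15 in D7, and 13 and 18 in D10. In CPM these were 0.754 and 0.655, 0.776 and 0.746, 0.840 and 1.14, and 1.03 and 1.42. Both experiments gave a higher value in every later medium than at D0, in the opposite direction to JAG1. The log2 change was 0.11 (SE 0.48) at D4, 0.49 (SE 0.47) at D7 and 0.79 (SE 0.47, adjusted p = 0.871, edgeR quasi-likelihood, Benjamini-Hochberg) at D10, or 0.54 without the D10 library of experiment 2. The trend was 0.083 log2 units per day (unadjusted p = 0.0587 by edgeR, adjusted p = 0.553). Another gene, AL512356.1, covers 7.33% of the exon bases of JAG2 on the same strand.

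**Figure D3:**
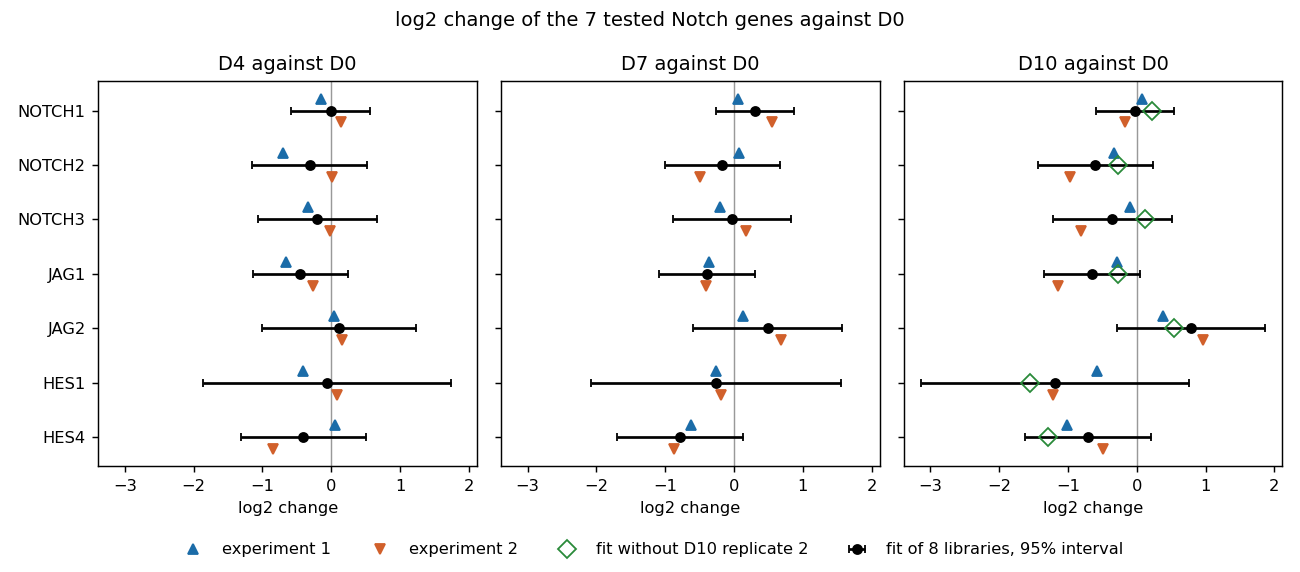
Log2 change against D0 (horizontal axes) of the 7 tested genes at D4, D7 and D10, with black points for the fit of 8 libraries and its 95% interval, triangles for each experiment alone and open diamonds for the D10 fit without the D10 library of experiment 2. Every interval includes 0, and at D10 the diamonds of NOTCH1 and NOTCH3 lie above 0.

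Among the targets, HES1 (ENSG00000114315.3, chr3:194136145-194138732, plus strand), the repressor with the paired core in its promoter, was counted at 8 and 23 reads in D0, 6 and 24 in D4, 7 and 19 in D7, and 5 and 8 in D10, or 0.670 and 1.67, 0.466 and 1.79, 0.535 and 1.44, and 0.396 and 0.631 CPM. Experiment 2 was above experiment 1 in every group, by 1.15, 1.65, 1.21 and 0.51 log2 units from D0 to D10. Both D10 libraries lay below both D0 libraries, and the groups overlapped at D4 and D7. The log2 change at D10 was -1.19 (SE 0.84, interval -3.14 to 0.76, adjusted p = 0.977 by edgeR, quasi-likelihood and Benjamini-Hochberg), and within experiments it was -0.58 and -1.22. With the replicate block the estimate was -1.14 with an SE of 0.49 and an adjusted p of 0.261. In the fit without the D10 library of experiment 2 it was -1.56, a value that sets the single remaining library of experiment 1 against both D0 libraries.

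HES4 (ENSG00000188290.10, chr1:998962-1000172, minus strand), a HES repressor that mice lack, was measured at 7.04 and 9.61 CPM in D0, 7.29 and 5.29 CPM in D4, 4.51 and 5.16 CPM in D7, and 3.40 and 6.78 CPM in D10, from 43 to 132 counts per library. The groups overlapped at D4, and the D7 and D10 libraries were all below both D0 libraries. Log2 changes were -0.40 (SE 0.39) at D4, -0.78 (SE 0.40) at D7 and -0.71 (SE 0.40) at D10, with an adjusted p of 0.841 at D10 (edgeR quasi-likelihood, Benjamini-Hochberg). Within the experiments the change at D10 was -1.02 and -0.49. It was -1.29 without the D10 library of experiment 2 and -0.28 without that of experiment 1, the ends of its range over 15 alternatives. Each of these 2 values sets a single D10 library against both D0 libraries and ignores the pairing. The trend was -0.077 log2 units per day (interval -0.15 to -0.0027, unadjusted p = 0.0437 and adjusted p = 0.487 by the same edgeR test). Without the D10 library of experiment 2 it was -0.12 per day (adjusted p = 0.113, edgeR), and the fit that also had the replicate block gave -0.12 with an adjusted p of 0.0282. That last fit called 5.80% of all genes, and over the 14 alternatives tried the adjusted p of the HES4 trend ran from 0.0282 to 0.763, with 1 of them under 0.05.

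HEY1 (ENSG00000164683.16, chr8:79764010-79767863, minus strand), a repressor of the HEY family, was at the count floor at D0 and D4 and above it in at least 1 library at D7 and D10. It had 0 and 1 counts in D0, 2 and 0 in D4, 10 and 6 in D7, and 3 and 11 in D10. The groups of D7 and D10 did not overlap with D0 in counts, for which no share over all rows was computed. Both experiments were above the floor at D7. At D10 experiment 1 had 3 counts, which is at the floor, and experiment 2 had 11. Summed counts over summed TMM-scaled library totals gave a ratio to D0 of 15.6 at D7 (95% interval 2.43 to 656) and 14.2 at D10 (2.16 to 600.5). The ratio of D10 to D4 was 7.27 (1.67 to 65.9). These intervals cover counting error only and rest on 1 count at D0 and 2 in D4.

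HEY1 did not pass the filter on low counts. In an edgeR fit of all 27696 rows with no filter it had an adjusted p of 0.575 at D7, 0.334 at D10 and 0.308 for the trend, and with the replicate block these were 0.0864, 0.0842 and 0.0398. The last of these fits called 4.07% of all rows for the trend. DESeq2 gave an adjusted p of 0.796 at D10 and 0.157 for the trend. Among the 5 target genes HEY1 was therefore the only one with more reads in later media than at D0 in both experiments at D7 and D10, at levels of at most 0.868 CPM. At D10 the 3 reads of experiment 1 were at the floor.

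HEYL (ENSG00000163909.7, chr1:39624153-39639945, minus strand), a HEY family gene known from smooth muscle, had 1 count in all 8 libraries together and was at the floor in every group. NRARP (ENSG00000198435.3, chr9:137300482-137302251, minus strand), which binds the intracellular domain of Notch and acts as a feedback inhibitor, had 7 counts in all and at most 3 in a library, and it too was at the floor in every group. At this depth the floor of 3 counts corresponds to 0.218 to 0.251 CPM, so for these genes no fold is given and a difference below that level was not detectable.

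**Figure D4:**
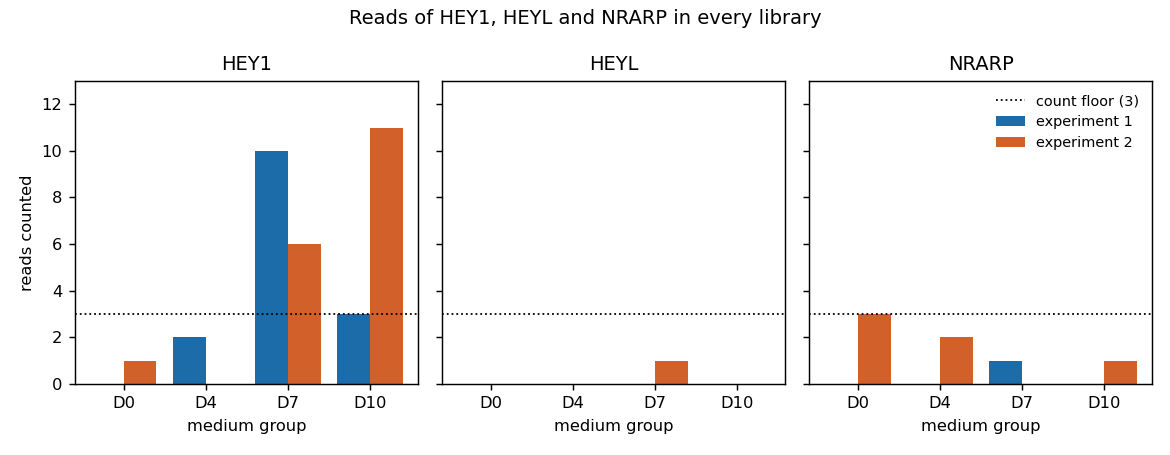
Reads counted (vertical axis, from 0) for HEY1, HEYL and NRARP in every library by medium group, with bars for experiments 1 and 2 and a dotted line at the floor of 3 counts. HEY1 reaches 10 and 6 reads in D7 and 11 reads in 1 library at D10, and no bar of HEYL or NRARP passes the floor.

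By overlap of libraries, the 2 libraries of the later group lay wholly on one side of the 2 D0 libraries for 1 of the 7 tested genes at D4 (JAG1), beside 22.3% of all tested genes. The count was 4 of 7 at D7 (NOTCH1, JAG1, JAG2 and HES4), beside 28.9%, and 5 of 7 at D10 (NOTCH2, JAG1, JAG2, HES1 and HES4), beside 31.0%. For D10 against D4 it was 1 of 7 (JAG2), beside 25.6%. The log2 differences between D10 and D4 ran from -1.13 (HES1) to 0.68 (JAG2), none with an adjusted p under 0.05 in edgeR.

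Beside these 10 genes, a list of 67 further pathway genes in 8 roles was examined, of which 64 had a row and 55 were tested. None of the 55 passed in edgeR without the block, with 1, 2 and 4 at an unadjusted p under 0.05 at D4, D7 and D10, 2 at D10 against D4 and 5 for the trend. The largest log2 change at D10 was that of DLL4, a Delta-like ligand best known from sprouting endothelium. DLL4 (ENSG00000128917.6, chr15:40929333-40939073, plus strand) was measured at 2.26 and 3.86 CPM in D0, 10.9 and 13.5 CPM in D4, 12.7 and 30.4 CPM in D7, and 28.1 and 17.0 CPM in D10, from 27 and 53 counts in D0 to 355 and 215 in D10. All 6 later libraries lay above both D0 libraries, already at D4. Its RefSeq promoter window held no core of RBPJ and 1 N box.

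The log2 change of DLL4 was 1.98 at D4 (adjusted p = 0.893), 2.80 at D7 (adjusted p = 0.292) and 2.87 at D10 (SE 0.51, interval 1.70 to 4.04, adjusted p = 0.0745) by edgeR (quasi-likelihood, Benjamini-Hochberg), so it did not pass without the block. The replicate block takes libraries of the same number as paired. With it the adjusted p by edgeR was 0.148 at D4, 0.0298 at D7 and 0.00809 at D10. For the trend it was 0.0192, against 0.0580 without the block. DESeq2 gave 0.0392, 3.52e-05 and 3.59e-06 on the 3 days. Without the D10 library of experiment 2 the change at D10 was 3.19 (adjusted p = 0.151, edgeR), and with the block as well it was 3.65 (adjusted p = 4.71e-06, edgeR). Over the 15 alternatives the adjusted p at D10 ran from 3.59e-06 to 0.346, with 4 under 0.05 and the log2 change between 2.48 and 3.65. Of the endothelial markers KDR, ERG and CLDN5 were at the count floor in all libraries, and PECAM1, CDH5 and TIE1 were under 1 CPM in every library. TEK, at 40.4 to 120.5 CPM, made up nearly all of the sum of the 8 markers, which ran from 43.0 to 122 CPM.

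In the role of DLL4, other receptors and ligands, 4 of 7 genes were tested. All 4 were higher than D0 in both experiments at D10, where 31.1% of all tested genes were, and none passed the main test. Besides DLL4 these were DLK1, NOV and NOTCH4, named after their values were seen. DLK1, a non-canonical ligand, had 20 and 10 counts in D0 and 24 and 77 in D10 (log2 change 1.73, SE 0.69, adjusted p = 0.544 by edgeR, and 0.17 and 2.82 within the experiments). NOV, a secreted matricellular protein that can bind Notch, stood at 11.1 and 8.66 CPM in D0 and 16.3 and 36.7 CPM in D10 (log2 change 1.43, SE 0.41, adjusted p = 0.265 by edgeR, and 0.0788 with the block). For both, the D10 library of experiment 2 was the highest of all 8, and without it the log2 changes were 0.67 for DLK1 and 0.73 for NOV. NOTCH4 had 1 to 13 counts in each library. In experiment 2 it had 7 counts in D0 and 7 in D10, so that its higher value there came from the scaling of the library totals, and without that D10 library its log2 change was 0.05.

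**Figure D5:**
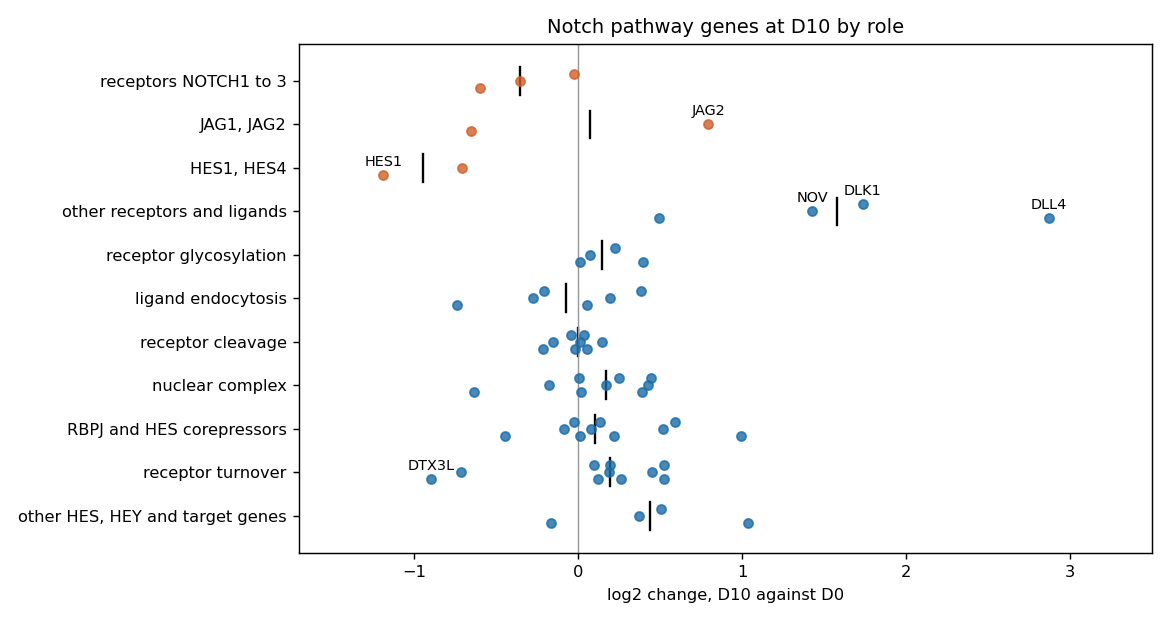
Log2 change at D10 against D0 (horizontal axis) of each tested Notch pathway gene, in rows by role, with NOTCH1 to NOTCH3, JAG1, JAG2, HES1 and HES4 in orange, 55 further pathway genes in blue and a black line for the median of a row. DLL4 lies farthest to the right at 2.87 and HES1 farthest to the left at -1.19.

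In the other 7 roles no gene passed the main test in any comparison, and the replicate block in the fit of 8 libraries added 1 call, DTX4, for the trend. DTX4, an E3 ubiquitin ligase of the Deltex family, was measured at 61.0 and 41.5 CPM in D0 and 86.7 and 60.5 CPM in D10, and within both experiments it was higher at D10 than at D0. Its trend was 0.056 log2 units per day (adjusted p = 0.578 by edgeR, and 0.0379 with the block). Its log2 change at D10 was 0.52 with all libraries and 0.76 without the D10 library of experiment 2. The block without that library called 2, 6 and 3 of the 55 genes at D4, D7 and D10, 1 at D10 against D4 and 7 for the trend, DLL4 included each time, beside 3.18%, 5.49%, 6.32%, 2.60% and 5.80% of all genes. DTX4 was among them at D7 (adjusted p = 0.0429, edgeR) and for the trend (0.0297), and POGLUT1 at D10 (0.0349), while over all alternatives their adjusted p ran up to 1 at D7, 0.785 for the trend and 1 at D10. The median log2 change at D10 was 0.15 for receptor glycosylation (4 genes tested), -0.08 for ligand endocytosis (6), -0.003 for receptor cleavage (8), 0.17 for the nuclear complex (9), 0.10 for corepressors (10), 0.19 for receptor turnover (10) and 0.44 for other HES, HEY and target genes (4), beside 0.004 for all tested genes. Without the D10 library of experiment 2 the medians of these 7 roles ran from -0.0057 to 0.54, beside -0.016. The 8 cleavage genes, which include the subunits of gamma-secretase, ranged from -0.22 to 0.14 in the fit of 8 libraries.

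The gene of each role with the largest log2 change at D10 did not pass in the fit of 8 libraries either. POGLUT1, which adds glucose to the EGF repeats of Notch, was at 0.40 (SE 0.25), or 0.60 without the D10 library of experiment 2. NEURL1B, a ubiquitin ligase for ligands, was at -0.74 (SE 0.35), or -0.77 without it. APH1A, a gamma-secretase subunit, was at -0.22 (SE 0.25), or -0.051 without that library. KAT2B, a histone acetyltransferase that joins the Notch complex, was at -0.64 (SE 0.31), or -0.30 without it. The corepressor TLE2 was at 0.99 (SE 0.82), or 0.49 without it, from 2 to 13 counts in each library. DTX3L, a ubiquitin ligase, was at -0.90 (SE 0.33, adjusted p = 0.457, edgeR), with 52.4 and 47.5 CPM in D0 and 36.2 and 17.5 CPM in D10. Within the experiments this was -0.53 and -1.43, and without the D10 library of experiment 2 the fit gave -0.46, so that much of the change rested on that library. HES7, a repressor known from the segmentation clock, was at 1.03 (SE 0.53), or 1.08 without that library, with 10 and 5 counts in D0 and 16 and 15 in D10.

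Likeness of pattern was measured as Pearson's r of log2 CPM, centred within each experiment, over the 8 libraries, for the gene of each role with the largest log2 change at D10. These libraries share depth, experiment and the D10 library that stands apart, and high values were common. NOTCH2 was most like FAM168B (r = 0.994), POLH (0.988) and ZNF300 (0.974), and 93 genes had r over 0.9 with it. JAG2 was most like GAK (0.993), XRCC1 (0.991) and AL353625.1 (0.980), among 156 genes over 0.9. HES1 was most like SH3TC2 (0.995), TOMM70 (0.994) and ZNHIT6 (0.990), among 409 genes over 0.9. For JAG2 and HES1, with 5 to 24 counts in each library, these values rest on few reads.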

How the data were processed

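RNA-Seq of 8 libraries (4 groups of 2) was analysed. The deposited values are unnormalized counts per gene, which the authors made from poly(A) RNA and stranded libraries; the submitters' processing notes name STAR 2.5, DESeq2 and the builds GRCh38 and hg38, while the counting tool, strand setting and annotation release are not given in the sources used here. A further 8 columns with normalized values were left unused. A column headed DO was taken as D0 of experiment 1.

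Genes were filtered with filterByExpr (13798 kept), scaled with TMM and tested with edgeR 4.0.16 (glmQLFit, glmQLFTest; R 4.3.3) by group in all 8 libraries, and over the day of the medium as a number, with Benjamini-Hochberg adjustment and a threshold of 0.05. Standard errors were derived from the F statistic. Log2 CPM within experiments used a prior count of 2. Fits were tested on simulated data. As alternatives the fit was repeated with a replicate block, with the size factors of DESeq2, without the filter, for genes with 10 or more counts throughout, on only the groups compared, and without each library, and DESeq2 1.42.0 was run; the block without the D10 library of experiment 2 was added after the data were seen. Libraries of the same replicate number were treated as paired. The labels give the number only. The authors' methods state 2 independent experiments, but not that a number marks the same experiment in every group. Over genes, deviations from the group mean correlated between libraries of the same number, with r of 0.418 to 0.722 for all 6 group pairs. Such correlations are across genes, which are not independent replicates.

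Of the gene identifiers, 99.6% were in GENCODE 29, from which positions and exon lengths were taken. Promoter windows came from RefSeq (GRCh38.p14). Ratios of low counts carry exact 95% intervals. The genes, lists and tests were chosen with earlier results of these data known. Named were all 10 genes, the gene of each other role with the largest log2 change at D10 and any pathway gene called with or without the block, and the 3 genes most like 1 gene of each main role.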

Additional observations from a re-analysis of the deposited data

How the results depend on the processing

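With 2 libraries in a group, the number of calls depended on the spread that was assumed. Across all genes DESeq2 called 44, 112, 379, 149 and 488 at D4, D7, D10, D10 against D4 and for the trend, the replicate block 38, 172, 688, 352 and 593, and the block without the D10 library of experiment 2 451, 778, 896, 368 and 822. With no filter 21, 93, 371 and 147 genes were called in the first 4 comparisons. At least 10 counts in every library gave 20 at D10, fitting only the groups compared gave 0 at D10 and 6 at D10 against D4, and DESeq2 size factors gave 6 at D10 against D4. Leaving out 1 library gave 0 to 155 at D10, 0 to 83 at D10 against D4 and 36 to 155 for the trend. A left-out library leaves a lone one, which is assumed to vary like the other groups.

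The pairing of experiments changed no call of NOTCH1 to NOTCH3, JAG1, JAG2, HES1 or HES4 in the fit of 8 libraries. Some directions turned when 1 library was left out, among them that of HES1 at D10 against D4, a change of -1.13 in the fit of 8 libraries, and the cause was not tested. Leaving out 1 library gave, at D4, log2 changes of -1.32 to 0.74 (HES1), -0.15 to 0.15 (NOTCH1) and -0.42 to 0.057 (NOTCH3). At D7 it gave -0.56 to 0.15 (NOTCH2), -1.13 to 0.55 (HES1) and -0.25 to 0.22 (NOTCH3), and at D10 -0.31 to 0.22 (NOTCH1) and -1.05 to 0.12 (NOTCH3). At D10 against D4 it gave -0.88 to 0.11 (HES4), -0.71 to 0.048 (NOTCH2), -1.77 to 0.13 (HES1), -0.31 to 0.23 (NOTCH1), -0.86 to 0.32 (NOTCH3), -0.71 to 0.18 (JAG1) and -0.023 to 0.49 (DTX4). For the trend it gave -0.0054 to 0.032 per day (NOTCH1) and -0.059 to 0.0090 (NOTCH3). NOTCH1 at D4 was 0.0055 with DESeq2 size factors and 0.0051 with DESeq2, and NOTCH3 at D7 was 0.0017 with the block. With the block and without the D10 library of experiment 2, NOTCH1 was 0.21 at D10 and 0.21 at D10 against D4, NOTCH3 0.016, 0.20 and, for the trend, 0.0022, and JAG1 0.22 at D10 against D4. JAG1, JAG2 and HES4 kept their direction at D7 and D10 against D0 in every alternative.

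Counts of 5 to 24 for HES1 and 9 to 18 for JAG2 limit the precision of both at this depth.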
